A study of Mus musculus with 2 samples.

Results

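The hepatocyte-like barcodes were 187 of the 14350 barcodes of a 10x Genomics scRNAseq library that passed limits on depth and quality, or 1.30%. They were chosen by measured values. A barcode had to hold 2000 to 75000 gene UMIs (unique molecular identifiers, each counting a captured transcript molecule) and more than 500 genes, with mitochondrial and globin transcripts each below 5% of its gene UMIs. It also had to take at least 2% of its gene UMIs from Alb, Apoa1, Apoa2, Ttr, Serpina1b, Fgb and Trf together and to hold no UMI of Cdh5, the endothelial cadherin. Any hashtag was allowed. Of the 14350 barcodes, 378 reached the 2% share and 191 of these held a Cdh5 UMI. The other 14163 passing barcodes and a profile of free RNA, summed over 24194 barcodes of 10 to 100 UMIs, served for comparison. The other passing barcodes include the 191 with a Cdh5 UMI, which hold 74.3% of that group's Afp UMIs and 74.1% of its Alb UMIs.

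The library pooled livers and hearts of C57BL/6 pups aged P6-P7, which had received one dose of 4-hydroxytamoxifen (40 mg/kg) at postnatal day 3, 3 days before dissection. The groups were control pups, for which the labels give no genotype, and pups with Cdh5-CreERT2 together with either iSuRe-Cre or iSuRe-HadCre. The study's figure shows floxed Notch1 with both iSuRe alleles, which the labels do not mention. Cdh5-CreERT2 is a tamoxifen-inducible Cre under the endothelial Cdh5 promoter. Once recombined, iSuRe-Cre expresses the membrane reporter MbTomato together with Cre, whereas iSuRe-HadCre expresses Cre for a time, then deletes it and turns on MbTomato. Red blood cells were lysed, and cells were sorted as CD31+ and MbTomato+ by the extraction protocol, while the design text names presence or absence of the reporter. The cell type label of the library is endothelial cells (ECs), and all 6 groups, each marked by an antibody hashtag, shared a single 10x port. Each group was thus a single sample, with no replicate and no spread between animals. All intervals below are exact 95% intervals that cover counting error only, and no test was made.

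Hepatocytes are the parenchymal cells of the liver. They make most plasma proteins, assemble lipoproteins, dispose of ammonia through the urea cycle, store and release glucose and secrete bile. Around birth they pass from a fetal programme, with the albumin relative Afp among its main products, to an adult one, while the blood-forming cells of the fetal liver recede. Afp and Alb lie side by side in the genome and share distant enhancers.

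The promoters of Alb and Afp are shown because the ratio of these transcripts, described below, had the same direction in every deeply captured barcode. In GRCm38 (GENCODE) both are protein-coding genes of the plus strand, Alb at chr5:90460897-90476602 and Afp at chr5:90490737-90508907, so that Afp begins 14135 bases beyond the end of Alb. Each sequence runs from 250 bases before to 50 bases after the start given by RefSeq (GRCm38.p6), on the plus strand, at chr5:90460620-90460919 for Alb and chr5:90490464-90490763 for Afp. Capitals mark CCAAT or its reverse complement ATTGG, the letters of the CCAAT box, a common promoter element, which was picked after these sequences had been seen.
Alb: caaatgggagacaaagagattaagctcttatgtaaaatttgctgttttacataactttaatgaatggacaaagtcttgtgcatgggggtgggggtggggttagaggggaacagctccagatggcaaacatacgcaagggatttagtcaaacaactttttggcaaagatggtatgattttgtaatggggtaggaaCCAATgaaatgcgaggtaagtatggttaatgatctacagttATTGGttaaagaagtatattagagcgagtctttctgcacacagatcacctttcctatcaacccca
Afp: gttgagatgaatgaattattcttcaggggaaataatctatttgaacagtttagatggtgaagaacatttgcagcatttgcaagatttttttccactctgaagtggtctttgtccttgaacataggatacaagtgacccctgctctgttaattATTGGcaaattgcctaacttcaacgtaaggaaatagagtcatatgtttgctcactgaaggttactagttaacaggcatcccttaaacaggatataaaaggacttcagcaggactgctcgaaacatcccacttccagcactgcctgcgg

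Alb held the letters at 2 places, with first bases at -56 and -15 from the RefSeq start, and Afp at 1, at -98. For both genes the RefSeq start lies upstream of the GENCODE start given above, so these positions do not count from the latter. Of the 7 genes of the rule, Afp and the 10 leading genes named below, 14 were matched among the RefSeq promoters. The letters occurred for 7 of them, namely Alb, Afp, Apoa2, Serpina1a, Serpina1b, Rbp4 and Ahsg, with Rbp4 holding them in 1 of its 2 promoters. They were not found in these windows for Apoa1, Fgb, Fga, Fgg, Apom, Apob and Fabp1. Over all 32851 promoters of this length 37.4% held them on either strand. A match describes letters and not a bound site.

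The share of UMIs from the 7 genes ran from 2.00% to 22.0% over the members, with a median of 4.22%. It had no gap at the limit. The members nearest to it were at 2.00%, 2.01% and 2.04%, and the nearest Cdh5-negative barcodes below it were at 1.99%, 1.98% and 1.98%. A further 131 barcodes without Cdh5 lay between 1% and 2%. In 12973 of the other passing barcodes (91.6%) the share was below 0.2%.

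**Figure D1:**
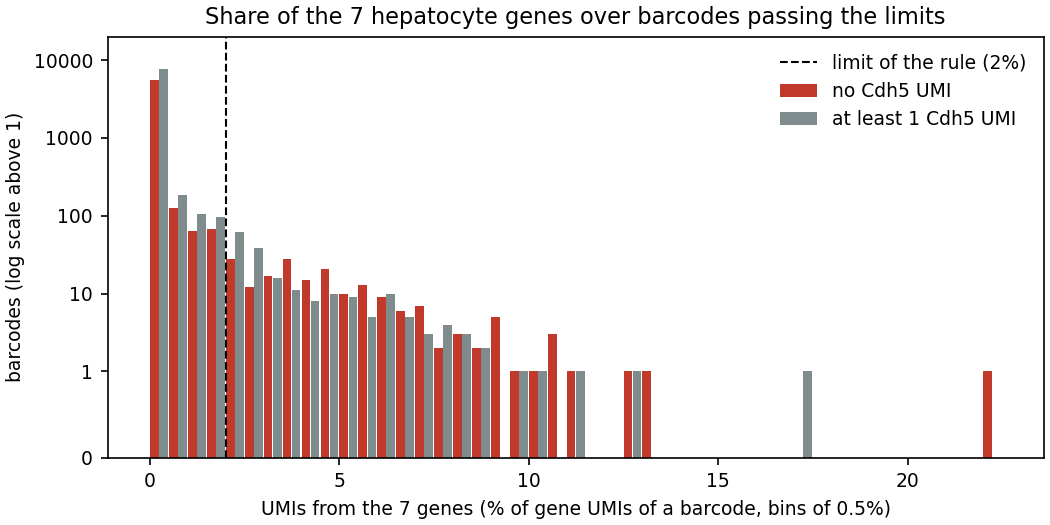
Barcodes passing the limits, counted in bins of 0.5% by the share of their gene UMIs that came from the 7 genes (horizontal axis, %), with the number of barcodes on a vertical axis that is logarithmic above 1. Red bars are barcodes without a Cdh5 UMI, grey bars those with one, and the 187 members are the red bars right of the dashed line at 2%, where the counts fall off without a gap.

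The members were not of a single kind. Of the 187, 167 drew on the whole set of genes, with Ttr (transthyretin, a carrier of thyroid hormone) making up at most 33.3% of the UMIs of the 7 genes. In 18 barcodes Ttr made up at least 98.1% of them. The remaining 2 lay between, at 70.7% and 75.8%. The 167 barcodes split again by depth. In 40 of them, called deep here, gene UMIs ran from 24907 to 74131 (median 48604), and in 127, called shallow, from 2009 to 14027 (median 3348). None of the 167 lay between 14027 and 24907 UMIs. These subsets were drawn after the values were seen and are described only. The 40 deep barcodes held 72.1% of all 2763677 gene UMIs of the members, the shallow ones 17.9% and the Ttr-dominated ones 9.76%. A sum over all members is therefore mostly a statement on the deep barcodes. Among the other passing barcodes the median depth was 5748 UMIs and 12.9% reached 20000.

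**Figure D2:**
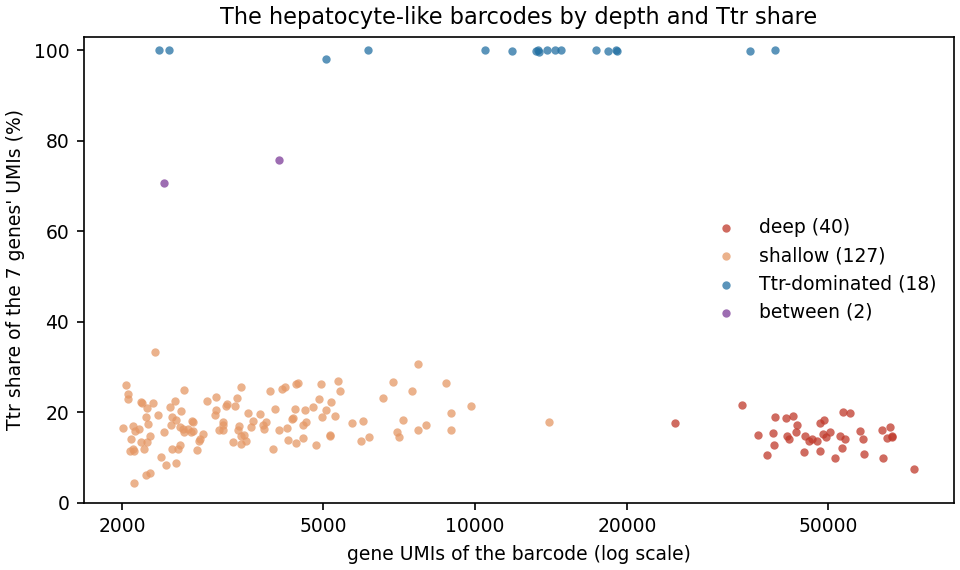
The 187 members by gene UMIs (horizontal axis, log scale) and by the share of Ttr among the UMIs of the 7 genes (vertical axis, %), each point a barcode. The 18 Ttr-dominated barcodes lie near 100%. The 40 deep and 127 shallow ones are all at 33.3% or below, and none of these lies between 14027 and 24907 UMIs.

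The markers were compared with the label. They are genes of the rule, so their high sums in the members were set by it and do not bear the label out. All 40 deep barcodes and 122 of the 127 shallow ones held UMIs of all 7 genes. Alb (serum albumin) was at 13692 CPM (UMIs of the gene scaled to a fixed total of gene UMIs, 13530 to 13856) in the deep and 11137 CPM in the shallow barcodes, against 237 in the other passing barcodes and 970 in free RNA. Apoa1, the main protein of high-density lipoprotein, was at 8172 and 7087 CPM in deep and shallow barcodes, and Serpina1b, an alpha-1-antitrypsin, at 3539 and 3114 CPM. In the 18 Ttr-dominated barcodes the same markers were close to absent. Alb had 1 UMI there in all (3.71 CPM), Serpina1b 1 UMI and Apoa1 6 UMIs, and 17 of the 18 barcodes had no Alb UMI. The data thus went against the label for these 18, which are called Ttr-dominated in what follows.

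Among genes outside the rule, those highest in the members over the other passing barcodes were Afp (alpha-fetoprotein), Rbp4 (the plasma carrier of retinol), Serpina6 (corticosteroid-binding globulin), Fga and Fgg (fibrinogen chains), Apom, Serpina1a, Ahsg (fetuin A), Apob and Fabp1 (the liver fatty acid-binding protein). Afp led with 24704 CPM in the members, 466 in the other passing barcodes and 1539 in free RNA. Without the 191 barcodes with a Cdh5 UMI, the other passing barcodes were at 122 CPM of Afp (120 to 124) and 62.4 CPM of Alb, an alternative chosen after seeing the data. The lowest after Cdh5, which the rule removed, were Scn7a, Ibsp, Ptprm, Rapgef5, Pcdh17, Col4a2, Col4a1, Flt1 and Mef2c. Flt1, a VEGF receptor of ECs, was at 13.4 CPM in the members and 199 in the others, and Col4a1, a basement membrane collagen, at 61.9 and 657 CPM. Of 9364 genes with a mean of at least 10 CPM, 2.84% were at least 4-fold higher in the members with 10 CPM added to both levels, and 3.33% were at least 4-fold lower. All 7 rule genes and 59 of the 77 measured hepatocyte genes outside the rule were among the former. This contrast is the one that chose the members, so nothing is read from these counts. The median gene was at -0.38 on the log2 scale. With scaling by the median of ratios, which shifts all genes, the counts were 405 higher and 140 lower genes, in place of 266 and 312.

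Over free RNA, the highest genes were Fga, Afp, Serpina6, Apoc4 and Htr2c, and the lowest after Cdh5 were Hbb-bs, Hbb-bt, Hba-a2 and Grik1. Of 9396 genes 2.33% were at least 4-fold higher in the members and 3.83% at least 4-fold lower. Globin was itself limited by the rule. Hbb-bs, adult beta-globin, was at 1628 CPM in the members and 28194 CPM in free RNA.

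The deep barcodes carried the fullest set of hepatocyte transcripts. The 121 hepatocyte genes of 10 lists outside the rule made up 5.22% of their UMIs, 3.58% in shallow barcodes, 0.202% in the other passing barcodes and 0.476% in free RNA. Against the 1829 other passing barcodes that also reached 20000 UMIs the share was 24.4-fold higher (24.2 to 24.6). These included 28 barcodes of at least 2% with a Cdh5 UMI, which held 55.7% of their hepatocyte UMIs, and without them the share was 53.7-fold higher (53.1 to 54.2). Of 9167 genes 3.36% were at least 4-fold higher in the deep than in all other passing barcodes and 7.90% at least 4-fold lower, and 63 of the 80 hepatocyte genes measured there were among the higher ones. The contrast again lies on the axis of the rule, as do the counts of list genes against the other passing barcodes given below.

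Afp was the most abundant of the named transcripts in the deep barcodes. It ran from 17028 to 48033 CPM over the 40 barcodes, with a median of 30239. Alb ran from 4677 to 35832 CPM, with a median of 11918. In all 40 barcodes Afp had more UMIs than Alb, by 1.34 to 4.75 times, with a median of 2.29. UMI counts of a tag assay do not grow with transcript length, so the levels of these genes can be set side by side. Across the 40 barcodes the CPM of both genes rose together (Pearson r = 0.78, Spearman rho = 0.75), as a description over barcodes of a single library with a shared total. In the shallow barcodes Afp exceeded Alb in 108 of 127, fell below it in 17 and equalled it in 2. Their summed ratio of 1.37 Afp UMIs per Alb UMI (1.33 to 1.42) was lower than the 2.22 (2.19 to 2.26) of the deep barcodes, and free RNA was at 1.59 (1.46 to 1.73). The order depended on the partner gene. Per Rbp4 UMI the Afp ratio was 2.42 (2.32 to 2.52) in shallow, 2.48 (2.44 to 2.52) in deep barcodes and 1.55 (1.43 to 1.69) in free RNA.

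**Figure D3:**
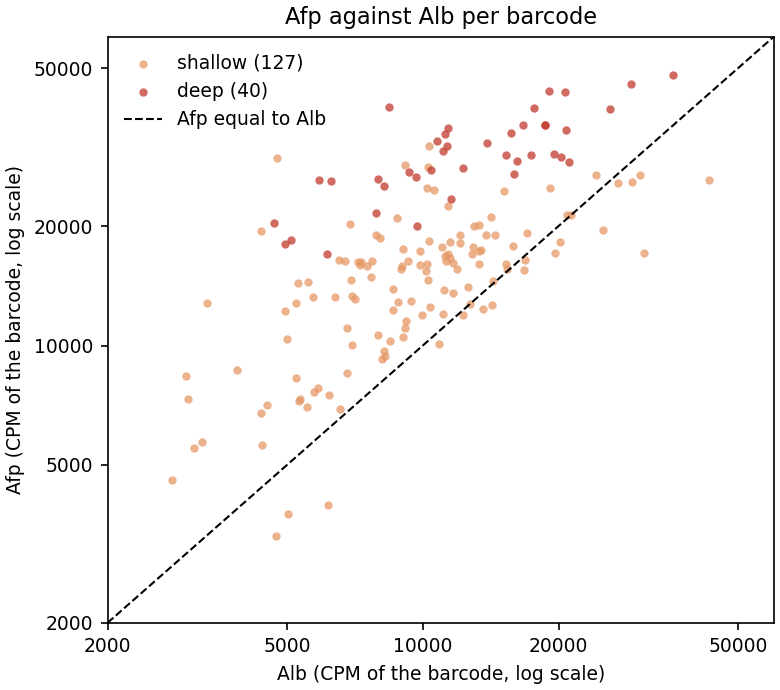
Afp against Alb in CPM of each barcode (both axes logarithmic) for the 40 deep (red) and 127 shallow (orange) barcodes, with the dashed line where both are equal. All deep points lie above the line, with Afp between 17028 and 48033 CPM, whereas the shallow points reach down to 3310 CPM of Afp and 17 of them lie below the line.

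Other transcripts of the fetal liver were mixed. Dlk1, a membrane protein of hepatoblasts, was at 2075 CPM in the deep barcodes (259 in the other passing ones) and present in all 40. Gpc3, a cell surface proteoglycan, was at 1220 CPM (407 in the others). Of the 8 genes measured on this list, only Afp and Dlk1 were at least 4-fold higher than in the other passing barcodes (3.36% of all measured genes). Igf2 was at 83.8 CPM against 40.4, Lin28b at 51.7 against 13.5, Igf2bp1 at 104 against 76.3 and Igf2bp3 at 114 against 127 CPM. Mest, an imprinted gene of mesodermal and other embryonic cells, was lower, at 19.6 CPM in the deep and 428 CPM in the other passing barcodes.

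Genes that rise in hepatocytes after birth were at or near 0. Of the 8 on that list, Mup3, Mup20, Hsd3b5 and Ces3a had no UMI in the 1992946 UMIs of the deep barcodes, a count that allows up to 1.51 CPM. Cyp2c37 was at 2.51, Cyp1a2 at 0.502 and Cyp7b1 at 4.01 CPM. Car3, a carbonic anhydrase, stood out at 272 CPM, seen in 36 of 40 barcodes with a range of 0 to 1606 CPM.

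Secreted plasma proteins were abundant. The 21 plasma carriers and protease inhibitors summed to 27128 CPM in the deep barcodes, 18266 in the shallow ones, 492 in the other passing barcodes and 2101 in free RNA. Of the 17 measured, all 17 were at least 4-fold above the other passing barcodes (3.36% of all measured genes). Rbp4 was at 12282 CPM and ran only from 6938 to 18809 CPM over the deep barcodes. Ambp, the precursor of alpha-1-microglobulin, was at 1149 CPM, Kng1 (kininogen) at 911, Vtn (vitronectin) at 781 and Hpx, the haem carrier, at 679 CPM. Serpina1a to Serpina1e are near-identical copies, so their separate values of 2187, 3539, 513, 241 and 677 CPM in the deep barcodes are uncertain. A few members of the list were missing. Serpina3k had no UMI, and Fetub and Hrg had 2 UMIs each.

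Coagulation factors summed to 6941 CPM in the deep barcodes. Of the 12 measured, 10 were at least 4-fold above the other passing barcodes (3.36% of all measured genes). The fibrinogen chains Fga, Fgb and Fgg were at 1696, 3775 and 2457 CPM. Serpinf2 (antiplasmin) was at 892, Plg (plasminogen) at 385, F2 (prothrombin) at 358 and Proc (protein C) at 269 CPM, and F10 had 598 UMIs, while F7 was at 21.1 and F9 at 3.01 CPM. Complement genes summed to 1683 CPM, with 8 of 11 at least 4-fold higher (3.36% of all measured genes). C3 was at 494 and its regulator Cfi at 413 CPM, whereas C9 was at 4.01 and C6 at 0 CPM.

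Lipoprotein genes summed to 10613 CPM. All 9 that were measured were at least 4-fold higher than in the other passing barcodes (3.36% of all measured genes). Apoe was at 3872 CPM, Apom at 2632, Apoc1 at 1802, Apob at 995 and Mttp, which loads lipid onto Apob, at 93.3 CPM. Apoc3 and Apoc2 were low, at 13.5 and 8.53 CPM, and Apoa4 had no UMI. Acute phase genes were sparse, with 381 CPM in all and 4 of the 6 measured at least 4-fold higher (3.36% of all measured genes). Lbp was at 141, Apcs at 94.8 and Crp at 34.1 CPM, and Saa1, Saa2 and Orm2 had no UMI.

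Among iron genes, Hamp, the hormone hepcidin that limits iron uptake, was unevenly spread. Its 231 UMIs in the deep barcodes (116 CPM) came from 8 of 40 barcodes, and 3 barcodes gave 82.7% of them. The highest reached 1448 CPM, and 32 barcodes had none. Tfr2 and Tmprss6, which act upstream of Hamp, were at 29.6 and 29.1 CPM, against 1.50 and 0.76 in the other passing barcodes. Ferritin transcripts were high everywhere, with Ftl1 at 3080 CPM in the deep and 1801 CPM in the other passing barcodes.

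Enzymes of intermediary metabolism were split between measured and missing members. In the urea cycle Ass1 was at 271 CPM, Otc at 211 and Asl at 91.8 CPM, while Cps1, which feeds ammonia into the cycle, had 4 UMIs (2.01 CPM) and Arg1 was at 18.1 CPM. In glucose metabolism Pygl was at 86.8 CPM, the glucose transporter Slc2a2 at 80.3 and Gys2 at 71.8 CPM. The enzymes of glucose release were close to absent. G6pc had no UMI, Pck1 had 4, Fbp1 had 7 and Tat, an amino acid-degrading enzyme, had 1. In fat oxidation Fabp1 was at 1524 CPM, Acadl at 328 and Acadm at 257 CPM, whereas Cpt1a was at 7.02 CPM, below the 20.4 CPM of the other passing barcodes.

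Bile and drug metabolism genes were mostly at low levels. Abcc2, which exports conjugated bilirubin, was at 227 CPM and held most of the 295 CPM of the bile list. Abcb11, the bile salt export pump, was at 19.6 and the bile salt importer Slc10a1 at 4.01 CPM, and Cyp7a1, the rate-limiting enzyme of bile acid synthesis, had no UMI. Of the 12 drug metabolism genes Gstm1 was at 460 CPM, Gsta3 at 133 and Por at 64.7 CPM. Cyp2e1, Cyp2c29, Cyp4a10, Cyp4a14 and Ugt1a1 had no UMI, and Cyp3a11 and Cyp2f2 had 1 UMI each.

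Genes that mark both zones of the adult lobule were measured in the sum over the deep barcodes. Periportal Ass1 was among the more abundant enzymes, and of the pericentral list Lect2 was at 322, Glul at 219 and Gulo at 171 CPM. The zonal genes Sds and Cyp2e1, periportal and pericentral, both had no UMI. Axin2, a Wnt target, was at 2.01 CPM and Lgr5 at 18.1 CPM.

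**Figure D4:**
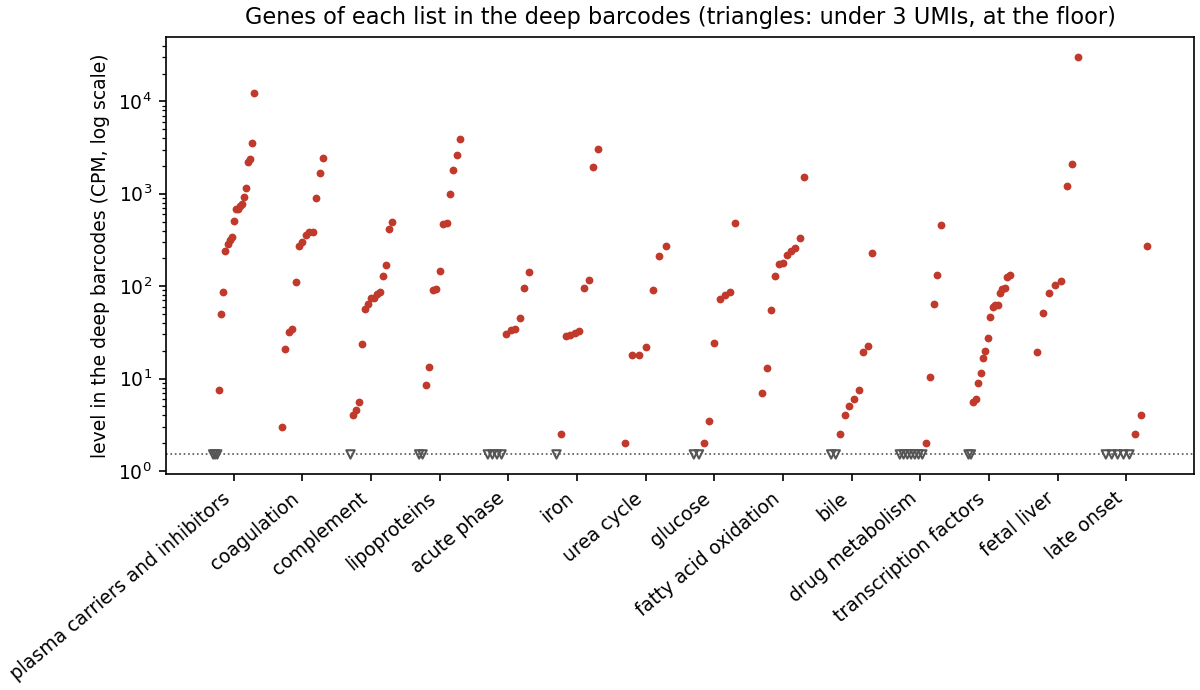
Levels in the 40 deep barcodes (vertical axis, CPM on a log scale) of each gene of the hepatocyte lists, sorted within each list. Triangles on the dotted line at 1.51 CPM are genes with fewer than 3 UMIs, and these gather among drug metabolism and late onset genes, while Afp at 30451 CPM is the highest point.

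Transcription factors of hepatocytes were present at low levels. In the deep barcodes Creb3l3 was at 132 CPM, Onecut2 at 126, Prox1 at 94.3, Foxa3 at 92.3, Cebpa at 62.7 and Hnf4a at 62.2 CPM. Hnf4a, the central regulator of hepatocyte identity, was seen in 37 of 40 deep barcodes and was at 1.06 CPM in the other passing barcodes and 5.42 CPM in free RNA. Nr1h4 (FXR) was at 9.03 CPM, while Nr1i3 (CAR) and Nr0b2 (SHP) had 2 UMIs each. Of 11 measured, 7 were at least 4-fold above the other passing barcodes (3.36% of all measured genes). The keratins Krt8 and Krt18 were at 421 and 763 CPM. Bile duct markers were nearly absent, with 15.1 CPM (30 UMIs) for the list. Krt19 had no UMI and Sox9 22 of these 30 UMIs, and Sox9 was at 99.3 CPM in the other passing barcodes. The metallothionein Mt1 was at 15207 CPM and above Alb in the sum. These keratins and Mt1 were chosen after their values were seen.

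Secretory pathway genes, which fold and export proteins, showed no 4-fold difference in any of 12. Of all measured genes, only 3.36% were 4-fold higher and 7.90% lower, so nothing is read from this count. The list summed to 7707 CPM against 3705 CPM in the other passing barcodes. The chaperone Hsp90b1 was at 1714 against 746 CPM and Hspa5 (BiP) at 1052 against 532 CPM.

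The deep barcodes also differed among themselves beyond counting. Over the 2730 genes of at least 50 CPM, the spread of counts around an equal share had a median of 1.51 times that of a Poisson count. It was largest for Dcc, with a median of 0 and 4706 CPM in the highest of the 5 barcodes that held it, followed by Mt1, Alb, Ttr, Afp, Apoa1 and Ahsg. At an equal relative spread this measure grows with the level of a gene, so abundant genes rank high. From the lowest to the highest barcode Afp spanned only 2.82-fold, Alb 7.66-fold and Ahsg 19.3-fold, against 33.6-fold for Fabp1, at rank 27. Mt1 ran from 3866 to 30507 CPM and Ahsg from 309 to 5974 CPM. The histone gene H1f5 ran from 0 to 2836 CPM and the chemokine gene Cxcl10 from 0 to 2442 CPM. The 10 proliferation genes summed to between 40.1 and 3012 CPM, with 16 barcodes above 1000 CPM and 11 below 200. Summed over the 40, Mki67 was at 108 CPM and Top2a at 185 CPM, below the 138 and 294 CPM of the other passing barcodes.

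The deep barcodes held few transcripts of other cell types. The 15 EC genes without Cdh5 summed to 81.3 CPM (69.3 to 94.8), against 2747 in the other passing barcodes, 1491 in those of at least 20000 UMIs and 2466 in free RNA. Pecam1, the gene of CD31, for which the cells were sorted, had 10 UMIs in 9 of 40 barcodes (5.02 CPM), against 263 CPM in the other passing barcodes. Kdr had 2 UMIs, Flt1 1 UMI and Tek none, and Egfl7 gave 96 of the 162 EC UMIs. All 15 EC genes were at least 4-fold lower than in the other passing barcodes, as were 7.90% of all measured genes. The absence of Cdh5 was part of the rule, and that limit is stricter at high depth, so the EC levels here were partly set by it. The 9 sinusoidal EC genes summed to 19.6 CPM (507 in the others), with Mrc1 and Dnase1l3 at 0, the 11 macrophage genes to 26 UMIs (312 CPM in the others), with Clec4f, Vsig4 and Adgre1 at 0, and the 7 neutrophil genes to 24.6 CPM (3191), with Elane at 0. The mesenchymal list was at 461 CPM, of which Reln gave 365. Reln was seen in all 40 barcodes (71.7 to 921 CPM). Of the 8 mesenchymal genes measured, 1 was at least 4-fold higher than in the other passing barcodes and 6 were lower (3.36% and 7.90% of all measured genes). Dcn and Des were at 3.51 and 0 CPM. The cardiomyocyte list was at 113 CPM, and Tnnc1 gave 219 of its 226 UMIs, with Myh7, Tnnt2, Tnni3, Myl2, Nppa and Pln at 0.

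The shallow barcodes held a hepatocyte profile together with EC transcripts. Their hepatocyte genes followed the order of the deep barcodes (Spearman rho = 0.96 over 80 genes, which are not replicates). Against the deep barcodes, rho was also 0.82 for free RNA and 0.64 for the other passing barcodes. It was 0.99 for the barcodes of at least 2% with a Cdh5 UMI. The 80 genes were kept by a mean level to which the deep and shallow barcodes contributed. In the shallow barcodes Afp was at 15302 CPM, Rbp4 at 6325 and Fga at 782, all below the deep level. Their EC list was at 1537 CPM (1429 to 1650), 0.623 times that of free RNA, and was seen in 121 of 127 barcodes. Pecam1 was at 123 CPM and seen in 43 of them. Globin made up 1.44% of their UMIs, 0.108% in the deep barcodes and 5.71% in free RNA. Of 8134 genes compared between deep and shallow barcodes 0.0492% were at least 4-fold higher in the deep ones and 3.09% at least 4-fold lower, among the latter 11 of the 15 EC genes. None of the 82 measured hepatocyte genes was in either group. The limit of no Cdh5 UMI is easier to pass at low depth, so the EC contrast between deep and shallow barcodes was partly set by the rule. Its size apart from the rule was not tested. The 4-fold lower genes were led by S100a9, S100a8, Fabp4 (a fatty acid carrier of ECs), Stfa1 and Camp. The shallow neutrophil level of 3174 CPM rested on 4 barcodes of 44812 to 147143 CPM, which gave 93.1% of it. Without them it was 226 CPM, Afp was at 15421 and the EC list at 1571 CPM. Whether a shallow barcode was a single cell, several cells or free RNA was not tested.

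**Figure D5:**
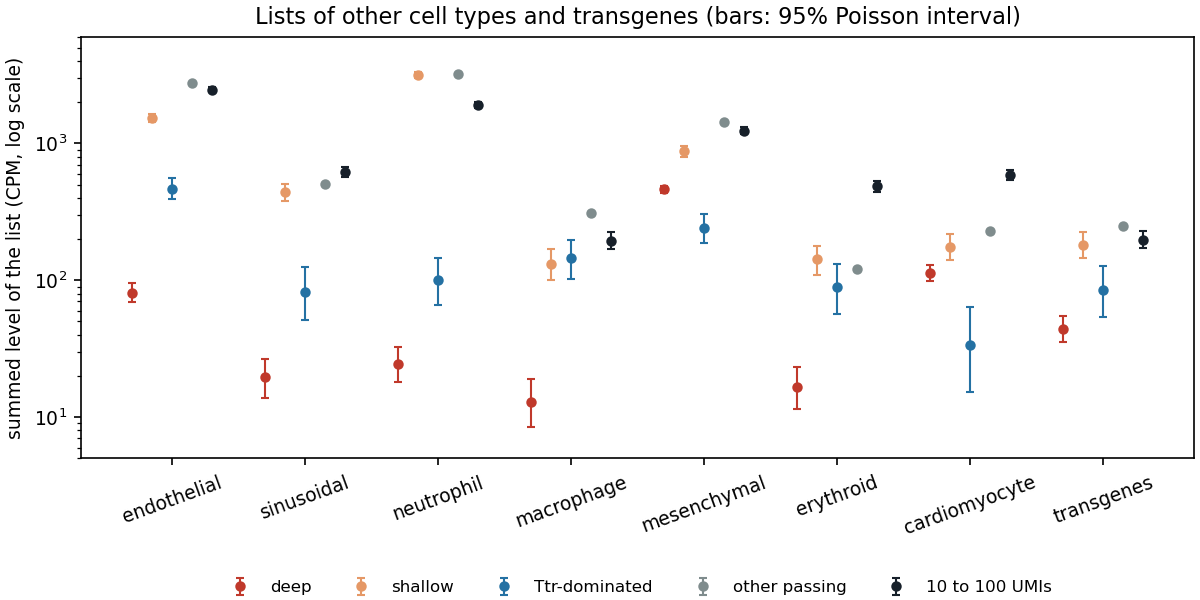
Summed levels (vertical axis, CPM on a log scale) of gene lists of other cell types and of the transgenes in 5 sets of barcodes, with points for sums over barcodes and bars for exact 95% Poisson intervals. Deep barcodes are lowest for the EC list (81.3 CPM) and the neutrophil list (24.6 CPM), while shallow ones are at 1537 and 3174 CPM.

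The Ttr-dominated barcodes had a separate profile. Their Ttr ran from 20134 to 220109 CPM, with a median of 64750, and their depth had a median of 13632 UMIs. The barcode with the highest share of the 7 genes of all members, 22.0%, was of this kind and the only one above 20%. Afp was at 11.1 CPM (3 UMIs), Fgb, Fga, Fabp1 and Hnf4a were at 0, and the hepatocyte genes outside the rule summed to 0.099% of UMIs, below the 0.202% of the other passing barcodes. Of 9696 genes 3.60% were at least 4-fold higher than in the other passing barcodes and 3.48% at least 4-fold lower. The highest were Htr2c (a serotonin receptor, 1910 against 2.21 CPM), Dynlrb2, Slc6a15, Kcne2, Trpm3, Clic6, Cfap126, Lrriq1, Folr1 and Cdc20b. Htr2c was seen in 14 of the 18 barcodes and in no deep or shallow one, and Folr1, a folate receptor, also in 14. In the barcode at 22.0%, Htr2c, Cntn1, Slc6a15, Kcne2 and Frmd5 were highest over the members below 5%, and Afp, Rbp4, Fabp5, Serpina6 and Apom lowest, a comparison that rests on that barcode alone. As background, Ttr has a second well-known source, the epithelium of the choroid plexus, for which Htr2c, Folr1, Kcne2, Clic6, Otx2 and Kcnj13 are also known. A list of 9 such genes, chosen after the values were seen, summed to 4754 CPM here and to 5.52 CPM in the deep barcodes. No cell type is assigned from it.

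The transgene sequences WPRE, Tomato and Cre were low in the deep barcodes. WPRE, an element in the transcripts of the alleles, was at 42.1 CPM (33.6 to 52.2) there, 0.263 times (0.199 to 0.346) its level in free RNA and 0.210 times that of the other passing barcodes. Relative to other passing barcodes from 20000 UMIs, without those of at least 2% with a Cdh5 UMI, it was 0.433 times (0.345 to 0.537). It was at 146 CPM in the shallow barcodes, 0.908 times free RNA (0.675 to 1.21). A WPRE UMI was seen in 22 of the 40 deep barcodes, the highest of which was at 239 CPM. Over all members the level was 64.4 CPM, or 0.402 times free RNA. Taken as a mean over barcodes, each with its own share, the same ratio was 1.08, so its direction over all members depended on the weight given to shallow barcodes. Tomato had 4 UMIs in the deep barcodes (2.01 CPM, against 37.7 in the others) and Cre none (10.8 CPM in the others). A further list of 4 transgene features was less reduced, at 82.8 CPM in the deep and 182 CPM in the other passing barcodes (0.455 times). Notch1, a Notch receptor whose deletion the study followed in ECs of this library, was at 5.52 CPM in the deep barcodes (2.76 to 9.88), 20.2 in the shallow ones, 37.9 in the other passing barcodes and 19.5 in free RNA. The median gene was -0.46 on the log2 scale between deep and other passing barcodes.

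The hashtags, which the rule did not use, did not set the members apart as liver cells. Of the UMIs of the 6 hashtags, 86.9% (86.2 to 87.5) came from the 3 liver hashtags in the members and 86.9% (86.8 to 86.9) in the other passing barcodes. HTO302, of the iSuRe-Cre liver, gave most of these in both, with a median of 27 UMIs per member and 28 per other barcode. Each of the other hashtags had a median of 1 to 3 UMIs. Without HTO302 the liver share was 75.6% (72.8 to 78.3) in the deep and 33.0% (30.5 to 35.6) in the shallow barcodes, and 34.1% in the other passing ones. The deep value rested on 2 barcodes with 545 and 61 UMIs of HTO307, of the iSuRe-HadCre liver. Without them it was 32.3% (27.3 to 37.7).

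HTODemux called 41 members singlets, 25 doublets and 118 negative, and 3 held too few hashtag UMIs to be called. The negative share was 63.1% in the members and 47.2% in the other passing barcodes. Of the 41 singlets, 18 carried a liver and 23 a heart hashtag. The liver share of 43.9% (28.5 to 60.3) had an interval that held the 47.8% of the other passing barcodes. The control heart hashtag HTO306 had the most, with 18 members among 1189 passing singlets (1.51%, 0.90 to 2.38). The control liver hashtag HTO303 had 8 of 487 (1.64%, 0.712 to 3.21), the iSuRe-Cre liver hashtag 6 of 1222 (0.491%, 0.18 to 1.07), the iSuRe-HadCre liver hashtag 4 of 612 (0.654%), the iSuRe-Cre heart hashtag 4 of 628 (0.637%) and the iSuRe-HadCre heart hashtag 1 of 721 (0.139%). Only 10 deep barcodes were singlets, 6 of them with HTO306, 3 with HTO307 and 1 with HTO302. Afp over the singlets that were not Ttr-dominated was at 31261 CPM for HTO306 (16 barcodes), 33470 for HTO307 (3 barcodes) and 17369 for HTO302 (6 barcodes). It was at 11103 CPM for HTO303 (8 barcodes), 10050 for HTO305 (3 barcodes) and 16439 for HTO301 (1 barcode). These differ in their mix of deep and shallow barcodes, and with 1 sample per group no comparison between alleles was made.

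The limit on Cdh5 left out barcodes much like the members in hepatocyte transcripts. The EC level of these barcodes was higher, but Cdh5 is itself an EC gene, so the split was made along that axis and nothing is read from this difference. The 191 barcodes with at least 2% from the 7 genes and a Cdh5 UMI had 1 such UMI in 111 cases, and their Afp was at 21017 CPM. Their EC list was at 1202 CPM, against 386 CPM in all members. Among the 191, 15 were Ttr-dominated and 26 were deep with a low Ttr share. Of the 26, 18 had a single Cdh5 UMI among at least 37136, and the highest held 29 Cdh5 UMIs. Afp of the 26 was at 27887 and Alb at 12728 CPM, close to the deep members. Their EC list was at 476 CPM, above the 81.3 CPM of the deep members. In those 18, a single molecule of Cdh5 decided that the barcode was not a member.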

How the data were processed

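With Cell Ranger 7.1.0 the authors mapped the reads to GRCm38, extended by the transgenes, and deposited an unfiltered matrix of UMI counts, not normalized, for 21951 genes and transgenes, 13 antibody or multiplexing features and 2755147 barcodes, all distinct. Of these features 7 are given no group by the labels and were left out. There was 1 library, of 236562217 gene UMIs.

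From the deposited counts, UMIs were summed over barcodes and given as CPM. Intervals were exact Poisson (levels), binomial (shares) or conditional (ratios) intervals at 95%, and a count of 0 was read as up to 3 counts. Genes were called at 4-fold with 10 CPM added and a mean of at least 10 CPM. A step on simulated counts was used to check the calls and intervals. Hashtags were called with HTODemux (Seurat 5.3.0, R 4.3.3, quantile 0.99) on 14299 barcodes with more than 4 hashtag UMIs. Doublets stayed among the members. No other doublet caller was run. Python 3.11.15 and scipy 1.17.1 were used.

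The members and gene lists were chosen with earlier results of these data known. Of 314 genes on 31 lists, 311 were found under their names. H19, Ahsp and sv40pA (listed as Sv40-pA) were not matched and are not analysed here. Genes were named as rule genes, as members of a list counted whole, or as the 10 highest and lowest against the other passing barcodes and 5 against free RNA. Genes named for the deep, shallow and Ttr-dominated barcodes were chosen after their values were seen, as were these subsets. Promoters came from RefSeq. Some genes of the lists are not reported here by name.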

Additional observations from a re-analysis of the deposited data

Results flagged for a closer look

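Barcodes outside the limits held the same signal. Above 75000 gene UMIs, 6 barcodes without a Cdh5 UMI took at least 2% of their UMIs from the 7 genes, where the limits on depth had left them out. Their Afp was at 21289 and Alb at 8483 CPM, and their EC list at 106 CPM. Afp in barcodes with at least 2% from the 7 genes and a Cdh5 UMI was at 21017 CPM, against 122 CPM in the other passing barcodes that were neither members nor among these.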

How the results depend on the processing

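No paired analysis was possible because each group was a single sample of 1 library and no test was made. Of 96 values recomputed under alternatives, 45 stayed within their counting interval (counts within 1.5 times), 50 moved and 1 turned direction. The settings without an upper UMI limit, without Ttr in the rule and for deep barcodes alone were chosen after seeing the data, as was leaving Cdh5-positive barcodes of at least 2% out of the others, which gave 277 higher and 318 lower genes. The number of members was 318 at a share of at least 1%, 66 at 5%, 8 at 10%, 378 with Cdh5 allowed, 81 from 5000 UMIs and 40 for deep barcodes alone. The hepatocyte share of 4.42% was 3.92% at 1%, 5.17% at 5%, 4.57% without Alb in the rule, 4.22% with Cdh5 allowed, 4.56% from 5000 UMIs, 4.53% without HTODemux doublets, 3.48% as a mean over barcodes, 4.69% relative to UMIs without the 7 genes, 4.31% with no upper UMI limit, 5.00% without Ttr in the rule and 5.22% for deep barcodes. The EC share of 0.0386% was 0.0654% at 1%, 0.025% at 5%, 0.0324% without Alb, 0.0757% with Cdh5 allowed, 0.0212% from 5000 UMIs, 0.0301% without doublets, 0.123% as a mean over barcodes, 0.0341% with no upper limit, 0.0303% without Ttr and 0.00813% for deep barcodes. The liver share of hashtag UMIs was 84.7% at 1%, 88.3% at 5%, 87.7% without Alb, 84.2% with Cdh5 allowed, 88.5% from 5000 UMIs, 87.7% without Ttr and 89.9% for deep barcodes. WPRE relative to free RNA was 0.583 with Cdh5 allowed, 0.725 (0.468 to 1.17) with free RNA from 10 to 50 UMIs, 0.601 with median-of-ratios scaling, 0.263 for deep barcodes and 1.08, turning direction, as a mean over barcodes. Cardiomyocyte genes relative to free RNA, 0.198, were 0.237 at 1%, 0.377 as a mean over barcodes, 0.377 with 10 to 50 UMIs and 0.296 with median-of-ratios scaling. Genes at least 4-fold higher, 266, were 405 with median-of-ratios scaling and 454 with 1 CPM added. Genes at least 4-fold lower, 312, were 106 at 1%, 161 with Cdh5 allowed, 140 with that scaling, 986 with 1 CPM added, 497 without Ttr and 724 for deep barcodes. That scaling shifts all genes by -0.57 (log2) against the other passing barcodes.

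The hashtag calls were unstable. Adding the 2 barcodes at the exact UMI limits raised singlets from 4859 to 5483, so calls per member are uncertain. With 1 sample per hashtag, the group and the sample cannot be told apart. The shallow barcodes are sparse, with a floor of 6.07 CPM for a count of 3.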

Other observations

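The gap in depth between deep and shallow members, from 14027 to 24907 UMIs, had a second edge of a similar kind, since the next shallow barcode had 9836 UMIs and the next deep one 33761. Both edges thus rested on a barcode each.

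Klb, Eda, Abcc6 and Garem1 were among the genes highest in the deep over the shallow barcodes. Klb, a coreceptor for FGF21 and FGF19 in hepatocytes, was at 39.1 CPM in the deep, 2.02 in the shallow, 0.738 in the other passing barcodes and 2.17 CPM in free RNA. Abcc6, a liver transporter, was at 30.1, 0, 0.487 and 0 CPM. Markers of yolk sac endoderm, another tissue that makes Afp, were at 0 (Cubn), 6.52 (Amn) and 1.51 CPM (Rhox5) in the deep barcodes, chosen after Afp had been seen. Hbb-y, an embryonic beta-like globin, had 22 UMIs among the 1992946 of the deep barcodes. It was at 317 CPM in the shallow ones and 272 CPM in free RNA.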
